A study of Homo sapiens with 6 samples.

Results

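The genes described here encode the proteasome, its immune subunits, its caps and activators and the chaperones that assemble it. They were chosen by name: every gene with a probe set annotated to that gene alone whose platform symbol starts with PSMA, PSMB, PSMC, PSMD, PSME, PSMF or PSMG followed by a digit. The rule found 46 genes, read by 111 probe sets, among 18239 genes and 49293 probe sets tested. Expression was measured on 6 Affymetrix arrays in MV4;11 cells, an established human leukemia line with a rearranged MLL gene (KMT2A). In 3 samples the cells had received 4 µM MI-389, an inhibitor of the binding of menin to MLL, and in the other 3 the solvent DMSO alone. The treatment lasted 6 days, the DMSO concentration was 0.25% in both groups, and the medium was changed and the compound renewed on day 3. All samples come from this 1 line, and the labels call them biological replicates and do not describe how separate cultures were set up. The p-values therefore speak only to variation among these arrays, some of which may be technical.

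The 26S proteasome degrades proteins that carry ubiquitin chains. Its 20S core is a barrel of outer alpha rings and inner beta rings, of which PSMB5, PSMB6 and PSMB7 cut the chain. In cells of the immune system and after interferon, PSMB8, PSMB9 and PSMB10 take the places of PSMB5, PSMB6 and PSMB7, and the resulting immunoproteasome favours peptides that MHC class I molecules can present. The 19S cap binds, unfolds and feeds the substrates, and the activators PSME1 and PSME2 open the barrel in an alternative way that interferon also favours.

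Of the 46 genes, 44 encode subunits, activators, an inhibitor or assembly factors. The other 2 share only the start of the symbol: PSMC3IP, a cofactor of recombination, and PSME3IP1, a partner of PSME3. PSMB10 was named only by 3 probe sets that the annotation also gives to CTRL, so it is not counted, and PSMC5, PSMD7 and PSMD13 were not analysed here. Values are log2 expression as deposited, and each gene is read by its probe set with the highest mean. Rose and fell mean an adjusted p under 0.05 in limma over all genes (Benjamini-Hochberg, two-sided). The highest value of the nonspecific control probe sets, with the one of highest GC content left out, was 5.49 and serves as a guide to background. PSMB11, the beta subunit of the thymus, lay under it in both groups (4.17 ± 0.03 and 4.28 ± 0.15, mean ± SD, n = 3 each). PSMA8, the alpha subunit of the testis, lay under it with MI-389, and every other member lay above it. In all, 41 members had a mean of at least 8.

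Pearson correlations over all probe sets, which are not independent, were 0.9971 to 0.9985 within a group and 0.9793 to 0.9809 between groups. Of 5 markers of the leukemia line 3 fell and 1 rose, and their summed log2 level was 37.9 to 39.2 with DMSO and 32.7 to 33.4 with MI-389. The receptor kinase FLT3 fell from 11.0 ± 0.04 to 9.59 ± 0.09, MEIS1 fell by 3.70 on the log2 scale, KMT2A rose by 0.51, and SPI1, which also fell, lay under background in both groups. All 5 T cell markers and all 3 erythroid markers lay under background, as did 3 of 4 B cell markers, with PAX5 at 6.66 with DMSO. Of 8 monocyte and macrophage markers 7 rose and FCGR1A fell, but CD14, CD163 and FCN1, among the 7, lay under background in both groups. The 8 markers' summed log2 level was 50.2 to 51.1 on the DMSO arrays and 57.9 to 58.1 on the MI-389 arrays. The part of these shifts in the results below was not tested. In such bulk samples fewer cells that express a gene and less RNA per cell cannot be told apart.

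Of the 46 members 19 fell with MI-389, 5 rose and 22 were not called, against 15.7% of all genes lower, 18.4% higher and 34.1% called in all. The 5 that rose were PSMB9, PSMD11, PSMD2, PSMB8 and PSMB2. The median log2 change of the members was -0.14, against 0.018 over all genes. The groups did not overlap for 40 members, 30 lower and 10 higher, where 45.3% of all genes did not overlap, 20.5% lower and 24.9% higher. Among the 4155 genes of mean level at least 8 the groups were apart for 1574 lower and 1559 higher and overlapped for 1022. Bright genes are called more often: among 4155 genes of mean level at least 8, 59.2% were called, 29.8% lower and 29.4% higher. Of the 41 members at this level 17 fell and 5 rose, 53.7% called, 41.5% lower and 12.2% higher. The share called was thus no higher than among bright genes, and the split between directions differed from theirs.

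The changes were small. No member changed 2-fold, whereas 3.87% of all genes passed the threshold with a change of that size. The median absolute log2 change was 0.169 for the members of mean at least 8 and 0.224 for all genes at that level. Only PSMA8, PSMD14 and PSMA5 changed by at least 0.5 on the log2 scale. Tested against a fold of 1.2 (limma treat), 6 members passed: PSMA5, PSMA8, PSMC2, PSMD14 and PSMG4 lower, and PSMB9 higher.

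**Figure D1:**
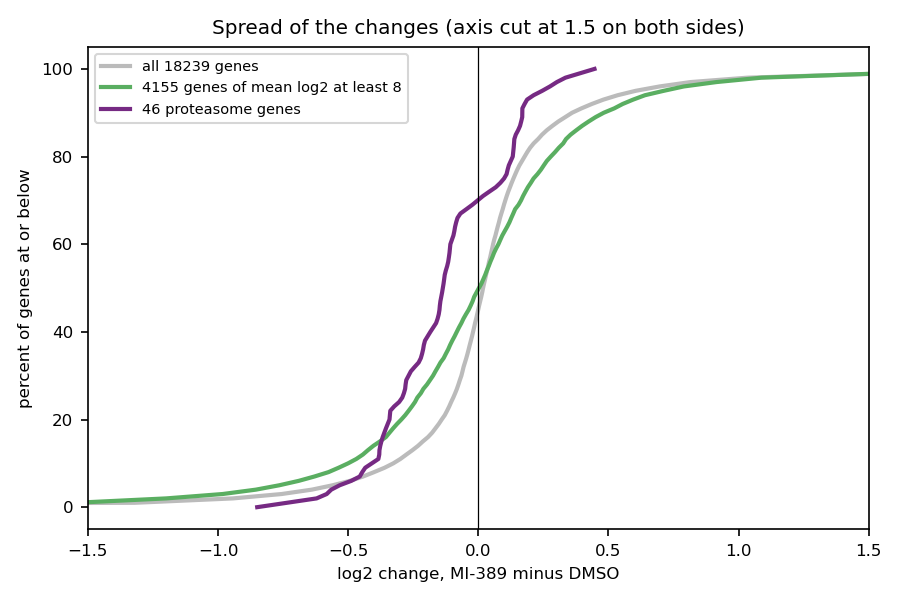
Cumulative share of genes (percent) against the log2 change, MI-389 minus DMSO, for the 46 proteasome genes, the 4155 genes of mean level at least 8 and all 18239 genes. The proteasome curve lies left of zero over most of its height, with a median of -0.14, and spans only -0.85 to 0.45.

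The scale of the arrays bears on every direction given here. The 9 probe sets of the hybridisation spike-ins, transcripts added in known amounts, were 0.25 higher in the MI-389 group. When they set the scale, every change drops by that amount, the median of all genes moves to -0.23, and 33 members were lower and 1, PSMB9, higher. Of all called genes 11.2% were then higher, against 53.9% in the values as deposited. PSMB2 (-0.08) and PSMB8 (-0.08) then changed sign and PSMD2 (0.01) and PSMD11 (0.07) were no longer called. The values below are as deposited.

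**Figure D2:**
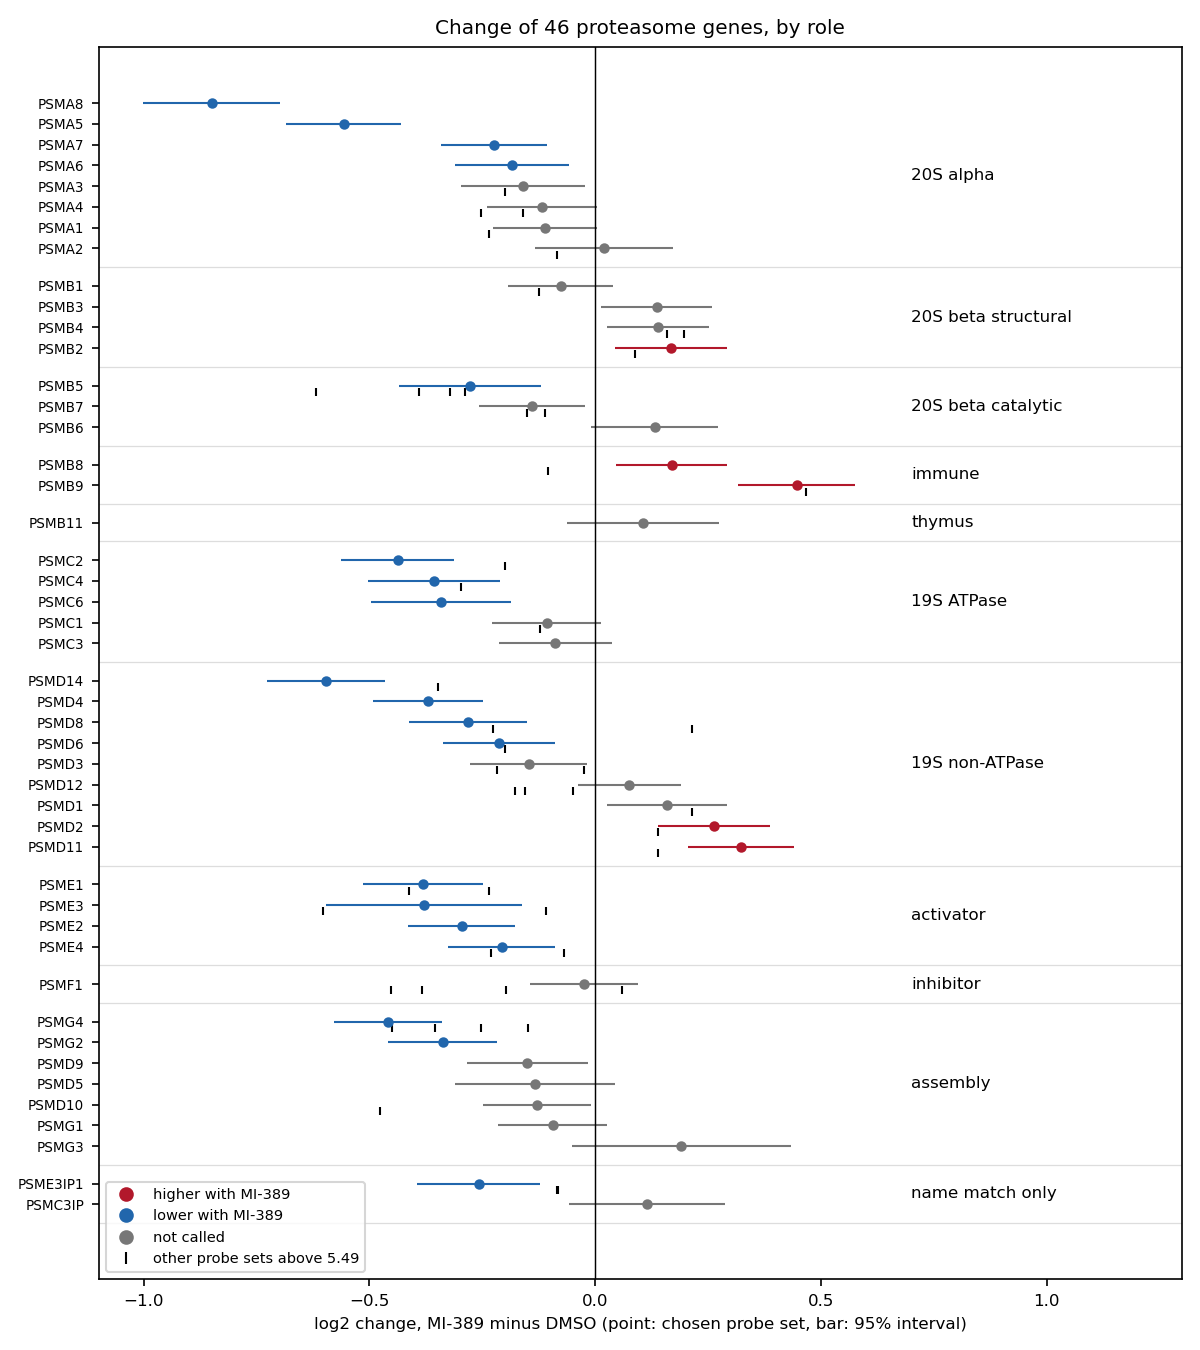
Log2 change, MI-389 minus DMSO, of each of the 46 genes (point, with its 95% interval as a bar), grouped by role and coloured by call. Black ticks give the other probe sets of the gene with a mean above 5.49. All 4 activators and all 5 measured ATPases of the cap lie left of zero, and PSMB9 lies farthest to the right at 0.45.

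Both measured immune subunits rose. PSMB9, an immune subunit of the beta ring, read 8.40, 8.46 and 8.52 on the DMSO arrays and 8.86, 8.90 and 8.95 on the MI-389 arrays. Every MI-389 array lay above every DMSO array. The log2 change was 0.45 (SE 0.06, limma adjusted p = 1.77e-04), a rise of 1.36-fold. A further probe set of PSMB9 rose by 0.47, and the remaining one, at a mean of 3.59, lay under background. PSMB6, the constitutive subunit that PSMB9 replaces, read 10.4, 10.3 and 10.4 with DMSO and 10.4, 10.5 and 10.6 with MI-389, a change of 0.13 that was not called (95% interval -0.01 to 0.27, adjusted p = 0.144).

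PSMB8, the chymotrypsin-like site of the immunoproteasome, read 9.83, 9.79 and 9.86 with DMSO and 9.98, 10.1 and 9.95 with MI-389. The groups did not overlap, and the change of 0.17 (SE 0.06) had a limma adjusted p of 0.0385. This call rests on 1 probe set. A further probe set of PSMB8 at a mean of 9.18 differed by -0.10 and was not called, and with the mean of all its probe sets the change was 0.00160. Over all probe sets, a larger set of tests, the brightest ones of PSMB8 and PSMB2 were not called. The call was also lost without any 1 of 5 of the arrays, the exception being MI-389 replicate 3 (changes of 0.14 to 0.18, adjusted p = 0.0638 to 0.134). PSMB5, which PSMB8 replaces, fell from 9.21 ± 0.08 to 8.93 ± 0.10, a change of -0.28 (SE 0.07, adjusted p = 0.0111). All 5 probe sets of PSMB5 fell, by 0.28 to 0.62 on the log2 scale.

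The balance of immune to constitutive subunits was read as a log2 ratio on each array, which compares changes and not levels. The ratio of PSMB9 to PSMB6 was higher with MI-389 by 0.31, with SDs of 0.08 and 0.05. Set against the DMSO mean, the MI-389 arrays stood at 0.33, 0.36 and 0.26 and the DMSO arrays at -0.09, 0.05 and 0.03. The ratio of PSMB8 to PSMB5 was higher by 0.45, with MI-389 arrays at 0.44, 0.60 and 0.30. The larger part of this was the change of PSMB5 (-0.28), beside 0.17 for PSMB8, which its further bright probe set (-0.10) did not share. In both pairs all MI-389 arrays lay above all DMSO arrays, and the exact permutation test gave p = 0.1 (two-sided, also after adjustment over the 2 pairs), the smallest p that 3 against 3 can give. The remaining pair needs PSMB10 and was not computed. With probe sets chosen by suffix, which here takes dim ones, the change of the ratio was 0.00163 for PSMB9 to PSMB6 and 0.22 for PSMB8 to PSMB5.

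The activators, which interferon favours in part, moved the other way: all 4 fell. PSME1, a chain of the activator ring that partners with the immunoproteasome, read 10.5, 10.5 and 10.6 with DMSO and 10.2, 10.1 and 10.2 with MI-389. Its change was -0.38 (SE 0.06, adjusted p = 6.29e-04), and all 3 of its probe sets fell. PSME2, the other chain of that ring, read 11.0, 10.9 and 10.9 and then 10.6, 10.7 and 10.6, a change of -0.30 (SE 0.05, adjusted p = 0.00148). PSME1 and PSME2 lie close together on chromosome 14 with 1 gene between them in the RefSeq table. PSME3, an activator of the nucleus, fell by 0.38 on the log2 scale with a wide spread in DMSO (SD 0.22), and 2 of its 3 probe sets fell. PSME4, another nuclear activator, fell by 0.21, with 4 of 6 probe sets lower. PSMF1, an inhibitor of the core that also acts in its assembly and transport, was at 9.03 ± 0.05 and 9.01 ± 0.01 in its brightest probe set, with an interval of -0.14 to 0.09. Its next 2 probe sets, at means of 7.80 and 7.06, fell by 0.38 and 0.45, so its probe sets disagree.

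**Figure D3:**
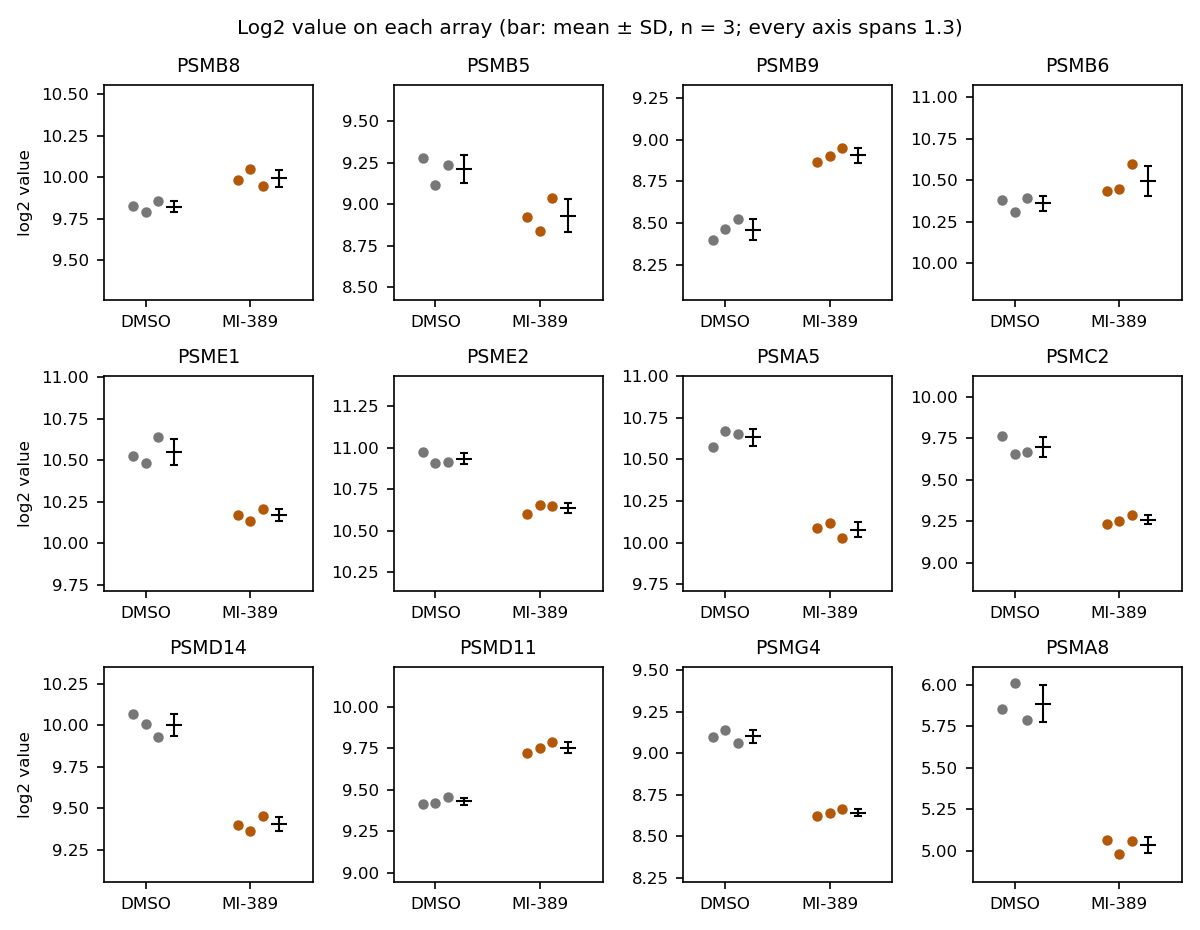
Log2 value on each of the 3 DMSO and 3 MI-389 arrays for 12 members, with mean ± SD beside the points and the same span of 1.3 on every axis. For each of the 12 genes the groups do not overlap, and PSMB9 and PSMD11 lie higher with MI-389 while PSME1, PSME2, PSMA5, PSMC2, PSMD14, PSMG4 and PSMA8 lie lower.

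The windows around the transcript starts of PSMB8, PSME1, PSME2 and PSMG4 are shown because they share a motif while PSMB8 rose and the others fell, and those of PSMB9 and TAP1 because these genes lie back to back. RefSeq windows (GRCh38.p14) of 250 bases before to 50 after each start were matched by symbol for 40 of the 46 members, in 50 windows. PSMA7, PSMB1, PSMB6, PSMB7, PSMD4 and PSMG3 were not matched. Each window is printed 5′ to 3′ along the gene. Capitals mark the letters of the interferon-stimulated response element, searched as GAAA, any 2 bases and GAAA again on both strands, and overlapping matches run together. PSMB8 is shown by its second window, TAP1, the neighbour of PSMB9, by its first.
PSMB8, chr6:32843998-32844297, strand minus: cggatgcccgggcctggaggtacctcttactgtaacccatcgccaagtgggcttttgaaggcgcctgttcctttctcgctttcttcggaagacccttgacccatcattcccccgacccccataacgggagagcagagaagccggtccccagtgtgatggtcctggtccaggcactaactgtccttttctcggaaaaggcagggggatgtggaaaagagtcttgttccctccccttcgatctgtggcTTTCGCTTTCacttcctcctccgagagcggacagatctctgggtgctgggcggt
PSME1, chr14:24135944-24136243, strand plus: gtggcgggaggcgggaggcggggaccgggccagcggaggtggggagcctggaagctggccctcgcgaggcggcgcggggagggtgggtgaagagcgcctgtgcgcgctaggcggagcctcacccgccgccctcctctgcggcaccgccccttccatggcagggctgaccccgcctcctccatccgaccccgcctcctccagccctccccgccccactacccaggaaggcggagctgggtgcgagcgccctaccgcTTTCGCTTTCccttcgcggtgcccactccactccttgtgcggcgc
PSME2, chr14:24146561-24146860, strand minus: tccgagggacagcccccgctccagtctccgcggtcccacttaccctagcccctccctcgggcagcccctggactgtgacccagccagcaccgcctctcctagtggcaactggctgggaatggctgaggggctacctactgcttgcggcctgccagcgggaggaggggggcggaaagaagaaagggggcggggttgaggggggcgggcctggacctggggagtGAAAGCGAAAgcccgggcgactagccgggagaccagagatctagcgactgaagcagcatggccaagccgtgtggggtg
PSMG4, chr6:3258697-3258996, strand plus: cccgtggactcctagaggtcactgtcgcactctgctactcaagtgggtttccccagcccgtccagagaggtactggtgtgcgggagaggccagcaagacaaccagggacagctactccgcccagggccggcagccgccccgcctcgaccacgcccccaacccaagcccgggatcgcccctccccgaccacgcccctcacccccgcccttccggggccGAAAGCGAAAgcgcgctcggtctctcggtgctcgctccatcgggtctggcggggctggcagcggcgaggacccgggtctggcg
TAP1, chr6:32853655-32853954, strand minus: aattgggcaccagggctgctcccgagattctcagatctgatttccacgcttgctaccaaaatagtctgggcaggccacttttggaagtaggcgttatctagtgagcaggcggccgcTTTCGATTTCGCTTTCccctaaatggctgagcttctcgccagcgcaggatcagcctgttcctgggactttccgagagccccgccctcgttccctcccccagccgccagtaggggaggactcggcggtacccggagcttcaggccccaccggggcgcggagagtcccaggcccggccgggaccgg
PSMB9, chr6:32853942-32854241, strand plus: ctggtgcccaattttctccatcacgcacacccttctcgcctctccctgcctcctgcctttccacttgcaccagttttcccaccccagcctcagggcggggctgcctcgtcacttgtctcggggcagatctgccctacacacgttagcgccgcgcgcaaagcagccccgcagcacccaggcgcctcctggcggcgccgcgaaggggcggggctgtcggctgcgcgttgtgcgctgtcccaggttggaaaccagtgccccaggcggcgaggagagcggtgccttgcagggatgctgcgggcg

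The same 10 letters, TTTCGCTTTC or their reverse complement GAAAGCGAAA, stood in the windows of PSMB8, PSME1, PSME2 and PSMG4, and in those of TAP1 and TAP2. The letters were taken from the match in PSMB8 after the calls were known, so their rarity is no test of the members. They occur in 35 of 35116 windows (0.0997%). Counted from the start as 0, their first base lay at -4 in PSMB8, 5 in PSME1, -28 in PSME2 and -33 in PSMG4. Of these members PSMB8 rose and PSME1, PSME2 and PSMG4 fell. The broader motif was in 12% of the members' windows and 3.57% of all windows, and besides these 4 genes PSMA4 and PSMB4 hold it. The window of PSMB9 holds no such match, nor does the first window of PSMB8. PSMB9 lies back to back with TAP1, whose start is 488 bases away on the other strand and whose window holds 2 overlapping matches, at -134 and -128. A match describes letters and is not a bound site.

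Of the 8 measured members of the alpha ring PSMA5, PSMA6, PSMA7 and PSMA8 fell and 0 rose, with a median change of -0.17. At a mean of at least 8, reached by 7 of the 8, 29.8% of all genes fell and 29.4% rose. PSMA5 read 10.6, 10.7 and 10.7 with DMSO and 10.1, 10.1 and 10.0 with MI-389. Its groups did not overlap, and its change of -0.56 (SE 0.06, adjusted p = 3.13e-05) was the largest fall among the alpha chains of the general proteasome. PSMA8 stood at 5.89 ± 0.11 with DMSO and 5.04 ± 0.05 with MI-389. With the background level in place of the MI-389 mean it was at least 1.32-fold lower. PSMA7 fell by 0.22 and PSMA6 by 0.18 on the log2 scale, and the call of PSMA6 was lost without any 1 of 5 of the arrays, MI-389 replicate 3 excepted (-0.21 to -0.15). PSMA1, PSMA3 and PSMA4 differed by -0.11, -0.16 and -0.12 with groups that did not overlap and were not called, although each had a dimmer probe set that fell. PSMA2 overlapped between the groups (0.02, interval -0.13 to 0.17).

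The beta ring showed no common direction. Among its 4 structural chains PSMB2 rose by 0.17 (adjusted p = 0.0389), a call lost without DMSO replicate 1 (0.14), DMSO replicate 2 (0.17), MI-389 replicate 1 (0.15) or MI-389 replicate 3 (0.17). PSMB3 and PSMB4 differed by 0.14 each with higher MI-389 arrays throughout and were not called, while 2 further probe sets of PSMB4 rose. PSMB1 differed by -0.08. Of the catalytic chains PSMB5 fell, as given above, and PSMB7, the trypsin-like site, differed by -0.14 (adjusted p = 0.0683, not called) in all 3 of its bright probe sets alike, from -0.15 to -0.11.

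In the 19S cap 7 of 14 measured members fell and 2 rose. All 14 had a mean of at least 8, where 29.8% of all genes fell and 29.4% rose. The ATPases, which form the ring that unfolds the substrate, were the more uniform part, with 5 of 5 measured members lower on every MI-389 array than on any DMSO array and a median change of -0.34. Among all 4155 genes of that level the groups were apart and lower for 1574. With the mean of all probe sets the median of the ATPases was -0.18. PSMC2 read 9.77, 9.66 and 9.67 with DMSO and 9.24, 9.25 and 9.29 with MI-389, a change of -0.44 (SE 0.06, adjusted p = 1.61e-04). A further probe set of PSMC2, at a mean of 8.09, differed by -0.20 and was not called. PSMC4 and PSMC6 fell by 0.36 and 0.34 on the log2 scale, and PSMC1 (-0.11) and PSMC3 (-0.09) were not called.

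The 9 measured cap members without ATPase activity split. PSMD14, the enzyme that removes the ubiquitin chain as the substrate enters, read 10.1, 10.0 and 9.93 with DMSO and 9.40, 9.36 and 9.45 with MI-389. Its groups lay far apart, and the change of -0.60 (SE 0.06, adjusted p = 2.53e-05), or 1.51-fold, was the largest fall of any member above background in both groups. PSMD4, a receptor for ubiquitin chains, fell by 0.37, and the lid subunits PSMD8 and PSMD6 fell by 0.28 and 0.21. PSMD8 has a dimmer probe set that differed by 0.21, and with the mean of all 3 its change was -0.10 and not called. Higher were PSMD11, a lid subunit, and PSMD2, a scaffold of the base. PSMD11 read 9.42, 9.42 and 9.46 and then 9.72, 9.75 and 9.79, a change of 0.32 (SE 0.05, adjusted p = 8.06e-04), and PSMD2 changed by 0.26 (SE 0.06, adjusted p = 0.00406). Each has 1 further probe set above background, which differed by 0.14 in both cases and was not called. PSMD1, the other large scaffold of the base, differed by 0.16 and was not called in its brightest probe set (adjusted p = 0.0652), while its other one rose by 0.21. PSMD3 (-0.15) and PSMD12 (0.08) were not called. A further probe set of PSMD3, at a mean of 8.44, fell by 0.22. The other probe sets of PSMD12 differed by -0.05, -0.15 and -0.18 and were not called.

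Of 7 assembly factors PSMG2 and PSMG4 fell and 0 rose. At a mean of at least 8, reached by 6 of the 7, 29.8% of all genes fell and 29.4% rose. PSMG4, which builds the alpha ring together with PSMG3, read 9.10, 9.14 and 9.06 with DMSO and 8.62, 8.64 and 8.67 with MI-389. Its change was -0.46 (SE 0.05, adjusted p = 7.96e-05), and 4 of its 6 probe sets fell. PSMG2, which works with PSMG1 at the same step, fell by 0.34 in its only probe set, while PSMG1 differed by -0.09 (interval -0.22 to 0.03). PSMG3 overlapped between the groups, with MI-389 arrays at 6.60, 6.69 and 6.23 (0.19, interval -0.05 to 0.43). The chaperones of the base, PSMD5, PSMD9 and PSMD10, differed by -0.13, -0.15 and -0.13 and were not called, although the dimmer probe set of PSMD10 fell by 0.48. Of the members by symbol alone PSME3IP1 fell by 0.26 and PSMC3IP differed by 0.12 without a call.

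Over all 111 probe sets of the members 43 fell and 7 rose, against 14% of all probe sets in either direction and 28% called in all. These shares are not matched for brightness. The array medians, 4.47 to 4.49, lay under the background level of 5.49, whereas only 18 of the 111 had a mean under it. Of the 32 members with several probe sets 23 had at least 1 called, and 0 had calls in opposite directions. Leaving out each array in turn kept 21 of the 24 gene calls, with PSMA6, PSMB2 and PSMB8 as the exceptions. Across these fits 3 to 5 members were higher and 18 to 20 lower. Under all 17 alternatives PSMA5, PSMA8 and PSMD14 kept their calls.

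Genes that act with the proteasome but carry other symbols were taken from a list of 39, of which 34 were measured: 14 fell and 6 rose. Of the 34, 58.8% were called, against 34.1% of all genes, 15.7% lower and 18.4% higher. At a mean of at least 8, reached by 22 of the 34, 59.2% of all genes were called, 29.8% lower and 29.4% higher. NFE2L1, the transcription factor that raises proteasome genes when the proteasome is impaired, read 8.32, 8.32 and 8.22 with DMSO and 7.44, 7.47 and 7.29 with MI-389. All MI-389 arrays lay below, with a change of -0.88 (SE 0.07, adjusted p = 3.43e-06), and its 3 probe sets above background all fell. The related factor NFE2L2 fell by 0.23, while its other probe set differed by 0.12. Of the proteins that process NFE2L1, UFD1 and SYVN1 fell (by 0.22 and 0.19 on the log2 scale), NPLOC4 rose by 0.37, NGLY1 (-0.07) and VCP (0.08) were not called, and DDI2 lay under background. The call of SYVN1 was lost without DMSO replicate 1 or 2 or MI-389 replicate 1 or 3 (-0.19 to -0.14, adjusted p = 0.0967 to 0.189) and with the mean of its probe sets (-0.10). That of NFE2L2 was lost without DMSO replicate 1 or 2 or MI-389 replicate 1 or 2 (-0.24 to -0.20, adjusted p = 0.0506 to 0.0824). The letters TGACNNNGC, a core of the element that NFE2L1 and NFE2L2 bind, stood in 28% of the members' windows and 13.3% of all. Of the 14 members that hold them 5 fell, 1 rose and 8 were not called. Among all 744 tested genes of mean at least 8 with these letters 28.9% fell and 30.0% rose, and of all 46 members 41.3% fell.

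UCHL5, a deubiquitinase of the cap, fell from 8.67 ± 0.03 to 7.74 ± 0.08, a change of -0.93 (SE 0.06, adjusted p = 1.22e-06). Of its 9 probe sets 6 fell, and these include all 5 that lay above background. ADRM1, the ubiquitin receptor that holds UCHL5 on the cap, fell by 0.39 in its brightest probe set and in all 3. Also lower were POMP (-0.26), the maturation factor of the core, ECPAS (-0.69), an adaptor of the proteasome, AKIRIN2 (-0.48), which brings proteasomes into the nucleus, TXNL1 (-0.39), UBQLN1 (-0.41), UBQLN4 (-0.32) and ZFAND2A (-0.93). The call of UBQLN4 was lost without DMSO replicate 2 (-0.28, adjusted p = 0.0510). ZFAND5, which stimulates the proteasome, rose by 0.32, but of its 9 probe sets 4 rose and 4 fell. Of the 4 lower, those at means of 5.48 and 5.37 lay under background. USP14, the other deubiquitinase of the cap, differed by -0.03 in its brightest probe set, while its other 3 fell. UBB, a ubiquitin gene, and the activating enzymes UBA1 and UBA6 were not called in their brightest probe sets. A dimmer probe set of UBA6, at a mean of 6.60, rose by 0.29, while its brightest differed by -0.11.

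Of the 5 measured regulators and neighbours of the immune subunits 4 rose. NLRC5, the transactivator of MHC class I genes and of PSMB9 and TAP1, rose by 0.98 (SE 0.06, adjusted p = 4.70e-07), from 7.43, 7.50 and 7.43 to 8.48, 8.39 and 8.41. IRF1, a factor that interferon induces and that acts on the promoter shared by PSMB9 and TAP1, fell from 7.89, 7.82 and 7.86 to 7.22, 7.28 and 7.19, a change of -0.62 (SE 0.05, adjusted p = 1.04e-05). TAP1 and TAP2, the peptide transporter genes that alternate with PSMB8 and PSMB9 along chromosome 6, rose by 0.43 each, and TAPBP, which loads the peptides, rose by 0.32. Of the 5 probe sets of TAPBP only this brightest one was called. Its others above background differed by 0.22 and -0.07. With the spike-ins as the scale TAP1 (0.17), TAP2 (0.18) and TAPBP (0.071) were no longer called, nor were NPLOC4 (0.11) and ZFAND5 (0.063), which left NLRC5 as the 1 linked gene called higher.

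**Figure D4:**
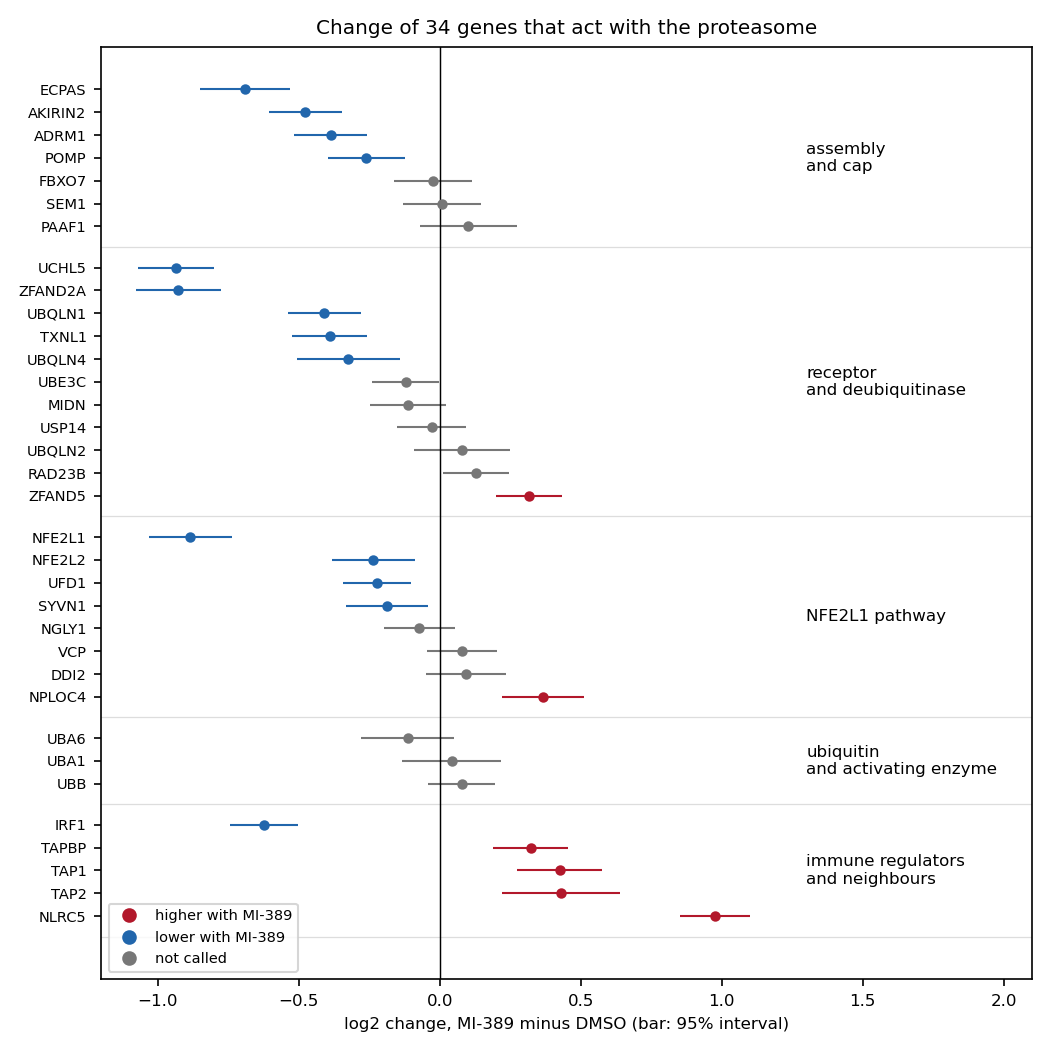
Log2 change, MI-389 minus DMSO, with its 95% interval, of 34 measured genes that act with the proteasome, grouped by role and coloured by call. UCHL5, ZFAND2A and NFE2L1 lie near -0.9, IRF1 lies at -0.62, and NLRC5 lies farthest to the right at 0.98.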

How the data were processed

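Per the labels' protocols, total RNA was amplified and labelled for 3′ expression arrays. The authors deposited 1 log2 value per probe set and array; RMA and limma are named in the submitters' processing notes, without versions or settings. Array medians were 4.47 to 4.49. RMA compresses dim values, so folds of dim genes are understated. No depth applies to arrays, and their number limits the precision.

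The 93 control probe sets were left out of tests. The platform annotation gave 1 gene for 45253 of the rest, several for 1327 and none for 2713. Symbols were brought up to date by Entrez ID with the RefSeq table of GRCh38.p14. The 3 MI-389 and 3 DMSO arrays were compared gene by gene without covariates (R 4.3.3, limma 3.58.1, functions lmFit and eBayes), a script checked on simulated data. Ratios of PSMB8 to PSMB5 and PSMB9 to PSMB6 had an exact permutation test. The design planned 3 pairs, but PSMB10 had no probe set of its own.

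Members and lists were chosen with earlier results of these data known. All members may be named, and of the linked genes the transcription factors and the called ones with an absolute log2 change of at least 0.3; others named with values are additions. Promoter motifs were picked after the calls were known. Alternatives were other scalings, a filter on dim genes, the replicate number as a block, variance models, array weights, other choices of probe set, stricter thresholds and leaving out each array. Same-numbered replicates are not said to share a batch.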

Additional observations from a re-analysis of the deposited data

How the results depend on the processing

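All values in this paragraph are for the deposited log2 values, with 5 members higher, 19 lower and a median change of -0.14 as the base. The number of members higher was 3 with a common median, 8 with dim genes left out, 9 with an intensity trend and robust variance, 3 with probe sets of unspecific suffix last and 3 at an adjusted p under 0.01. With limma treat against a fold of 1.2 it was 1, with 5 lower, and 1 higher and 6 lower among the linked genes. With the spike-in centring it was 1, with 33 lower, and 1 higher and 22 lower among the linked genes. With the replicate block 3 members were higher. Same-numbered arrays correlated in their deviations at -0.20, 0.018 and -0.14, which gives no sign of pairing, and whether they share a batch is not known. The block ended the calls of PSMA6, PSMB2, PSMB8 and, among the linked genes, SYVN1 (adjusted p = 0.0630, 0.0855, 0.0899 and 0.0511). Leaving out each array gave 3 to 5 higher and 18 to 20 lower, 6 to 6 linked genes higher and 11 to 14 lower.

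Class medians moved by more than the spread between arrays as follows. The median of all members was -0.16 with a common median, -0.12 after a further quantile normalisation, -0.39 with the spike-in centring, -0.12 with array weights, -0.13 with the mean of all probe sets and -0.12 with suffixes last. In the same order of settings, where moved, the alpha ring stood at -0.19, -0.18, -0.42 and, with the mean of probe sets, -0.18. The structural beta chains stood at 0.12 with a common median, -0.11 with the spike-ins and 0.10 with the mean of probe sets, and the catalytic ones at -0.39 with the spike-ins and -0.079 with the mean. The immune subunits stood at 0.055 with the spike-ins, 0.18 with the mean and 0.037 with suffixes last, where dim probe sets replace bright ones. The ATPases stood at -0.36 with a common median, -0.33 after quantiles, -0.59 with the spike-ins, -0.33 with array weights, -0.18 with the mean and -0.20 with suffixes last. The other cap members stood at -0.17, -0.10, -0.40, -0.13, -0.082 and 0.044 under the same 6 settings. The activators stood at -0.59 with the spike-ins, and the assembly factors at -0.093 after quantiles, -0.39 with the spike-ins and -0.094 with the mean. The ratio of PSMB9 to PSMB6 changed by 0.22 with the mean of probe sets and 0.00163 with suffixes last, and that of PSMB8 to PSMB5 by 0.22 with suffixes last.

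Without 1 array the medians ranged from -0.14 to -0.12 for all members, -0.20 to -0.14 for the alpha ring, 0.13 to 0.15 and -0.15 to -0.12 for the structural and catalytic beta chains, 0.29 to 0.33 for the immune subunits, -0.34 to -0.29 and -0.18 to -0.11 for the ATPases and other cap members, -0.35 to -0.27 for the activators and -0.15 to -0.11 for the assembly factors. The ratios ranged from 0.37 to 0.52 for PSMB8 to PSMB5 and 0.27 to 0.34 for PSMB9 to PSMB6. With the spike-in centring 11 of 46 members and 8 of 34 linked genes changed sign. Those called before or after it were PSMA2 (-0.23), PSMB2 (-0.084), PSMB8 (-0.083), SEM1 (-0.24) and UBA1 (-0.21). Signs of called genes also turned with the mean of probe sets for ZFAND5 (-0.026), and with suffixes last for PSMB8 (-0.060) and UCHL5 (0.048), both then read by probe sets under background. Causes were not tested.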

Other observations

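Among the 28 tested genes whose start window holds TTTCGCTTTC or its reverse complement, 7 rose (25.0%) and 9 fell (32.1%). Of all genes 18.4% rose and 15.7% fell. The median log2 change was 0.017, close to the 0.018 of all genes. Of the 10 with a mean of at least 8, 3 rose and 4 fell, where 29.4% and 29.8% of all genes at that level did. Both counts include PSMB8, which supplied the letters and rose, and PSME1, PSME2 and PSMG4, which fell. RNF31, which lies close to PSME2 on chromosome 14, fell by 0.38 on the log2 scale. MYD88, an adaptor of Toll-like receptors, rose by 0.55 and TNFRSF1B, a TNF receptor, by 1.39 with the same letters. These genes were named after their values were seen.

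A further motif, also singled out after its values were seen, was CCGGAAGT, letters that ETS factors bind. It stood in 20% of the members' windows and 4.14% of all windows on either strand. In all 7 motifs were searched, and only TGATGNAA was rarer in the members' windows (2% against 3.62%). GGGCGG stood in 70% against 45%, TTCNNNGAA in 16% against 7.66% and ATTGG in 44% against 34.6%. Of the 10 members that hold CCGGAAGT, which include PSMD14, PSMC2 and PSMA8, 7 fell, 0 rose and 3 were not called. Of all 46 members 41.3% fell. Over all tested genes with these letters 292 of 1045 fell and 231 rose, with a median change of -0.018, and at a mean of at least 8 these were 147 of 452 and 102, with a median of -0.034.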
